A study of Mus musculus with 54 samples.

Results

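Fatty acid synthesis turns the carbon of sugar into fat, and 10 of its genes were followed in the livers and hearts of mice with altered mitochondrial translation. The genes are Acly, Acaca, Fasn, Elovl6, Scd1, Me1, Thrsp and Pnpla3, which carry out or accompany the pathway, and Srebf1 and Mlxipl, which encode its transcription factors SREBP1 and ChREBP. They are taken by their names from the tables, and all 10 were present once among the 54356 genes of each tissue's table. All 10 had a mean of at least 10 normalized counts in both tissues and were tested, among 15314 genes in the liver and 16057 in the heart. None of the 10 passed an adjusted p of 0.05 in any of the 6 comparisons between genotypes, where 0.0% to 0.0311% of all tested genes did. In the liver, however, the values of 10 of 10 genes averaged higher in Mrps12ha/ha than in Mrps12+/+ mice, beside 47.5% of all tested genes. Mlxipl was higher in every mutant liver of either genotype than in any Mrps12+/+ liver. Of all tested genes, 10.0% were higher without overlap in Mrps12ha/ha and 6.49% in Mrps12ep/ep livers. The liver of Mrps12+/+ mouse 3, which had high acute phase genes, was the lowest for 9 of the 10. Without it the median log2 fold change of the 10 genes in Mrps12ha/ha livers was 0.37 in place of 0.63. Without the livers of Mrps12+/+ mice 1 and 2, which held skeletal muscle transcripts, the median was 1.0, with 1 Mrps12+/+ liver left. The genes share mice and were chosen with earlier results of these data known, so 10 of 10 is a description and not a test.

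The study asked how errors in mitochondrial protein synthesis affect mice under metabolic stress. Mrps12 encodes a protein of the small subunit of the mitochondrial ribosome. Mice homozygous for an error-prone allele (Mrps12ep/ep) or a hyper-accurate allele (Mrps12ha/ha) were set beside Mrps12+/+ mice of the same age, matched by litter, with 3 mice a genotype. All were C57BL/6 mice aged 20 weeks on a high-fat diet with 42% of its energy as fat, so no group here ate a standard diet and the effect of the diet cannot be read from these libraries. The alleles were carried by every cell of the animal and were not limited to a tissue. RNA came from whole hearts or livers, and 3 technical libraries per mouse and tissue, 54 in all, are pooled in 18 columns of normalized counts. A mouse is the replicate throughout, and the limma p-values set a difference of means against the spread between these few mice. In whole tissue, a smaller share of cells that express a gene and less RNA per cell cannot be told apart.

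As background, citrate that leaves the mitochondria is cut by ATP citrate lyase (Acly) to acetyl-CoA, which acetyl-CoA carboxylase 1 (Acaca) turns into malonyl-CoA. Fatty acid synthase (Fasn) builds palmitate from these, Elovl6 lengthens it and stearoyl-CoA desaturase 1 (Scd1) puts in a double bond, while malic enzyme (Me1) supplies NADPH. In the liver, insulin raises Srebf1 transcription and the cleavage of its protein, and products of glucose metabolism activate ChREBP, so the pathway is high after feeding and low in fasting. Both factors bind the promoters of the enzymes, and the Srebf1 gene has alternative first exons that give SREBP-1a and SREBP-1c, which a count per gene does not separate.

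The promoters of both factors and of Fasn, the enzyme that defines the pathway, are shown as examples. RefSeq starts on GRCm38.p6 were found for 9 of the 10 genes, in 13 windows, and Scd1 had no entry. The bases that precede each start, 250 in number, are printed 5′ to 3′ on the gene's strand, with capitals on the motifs that were searched. Mlxipl has an upstream start with bases chr5:135089640-135089889 before it and an internal one with chr5:135106641-135106890, both on the plus strand. Srebf1 is shown at its most internal start, chr11:60210472-60210721, and Fasn at chr11:120824548-120824797, both on the minus strand. None of these stretches overlaps an annotated exon of its gene in GENCODE vM21.
Mlxipl, upstream start: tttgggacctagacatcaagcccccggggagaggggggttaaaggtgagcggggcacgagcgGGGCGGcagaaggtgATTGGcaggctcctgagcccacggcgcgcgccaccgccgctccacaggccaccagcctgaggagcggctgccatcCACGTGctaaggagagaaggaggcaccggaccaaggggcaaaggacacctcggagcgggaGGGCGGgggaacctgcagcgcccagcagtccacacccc
Mlxipl, internal start: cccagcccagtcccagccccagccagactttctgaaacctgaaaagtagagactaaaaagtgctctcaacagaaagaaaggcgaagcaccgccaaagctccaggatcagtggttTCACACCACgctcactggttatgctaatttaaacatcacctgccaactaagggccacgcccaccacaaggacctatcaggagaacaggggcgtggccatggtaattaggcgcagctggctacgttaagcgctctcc
Srebf1, most internal start: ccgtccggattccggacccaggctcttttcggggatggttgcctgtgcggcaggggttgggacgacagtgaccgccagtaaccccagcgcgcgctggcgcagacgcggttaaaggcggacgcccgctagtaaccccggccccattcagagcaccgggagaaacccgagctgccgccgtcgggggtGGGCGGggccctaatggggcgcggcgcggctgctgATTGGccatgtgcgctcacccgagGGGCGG
Fasn: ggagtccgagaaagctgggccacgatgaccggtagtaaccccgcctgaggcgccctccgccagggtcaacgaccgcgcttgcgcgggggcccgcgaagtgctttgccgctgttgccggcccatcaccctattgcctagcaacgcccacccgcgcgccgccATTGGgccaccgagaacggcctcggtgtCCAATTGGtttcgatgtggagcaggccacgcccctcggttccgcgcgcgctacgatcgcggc

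These 250 bases were searched for motifs on both strands, and a match describes the sequence only. Only the letters given for each motif were searched, so bases without a match can still hold variants of it. The E-box CACGTG, a kind of site that USF and ChREBP proteins can bind, was found before 1 of the 9 genes, Mlxipl at its upstream start, and in 6.02% of all 32851 RefSeq windows of the same length. The letters TCACNCCAC (N is any base), after the sterol regulatory element bound by SREBPs, were found before 1 of the 9, Mlxipl at its internal start, and in 1.05% of all windows. The NF-Y letters ATTGG were found before 6 of the 9 genes, in 7 of their 13 windows, and in 33.8% of all windows, and 2 of the matches before Fasn overlap each other in CCAATTGG. The GC box GGGCGG, bound by SP1, was found before 5 of the 9, in 6 of the 13 windows, and in 32.7% of all windows. A pattern for the carbohydrate response element was found before 0 of the 9 and in 0.454% of all windows.

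Before the comparisons, libraries that stand apart have to be named. The hearts held 11202876 to 51480319 reads, recovered from the normalized counts, and the livers 21238157 to 81518208 reads, and the shallowest heart was that of Mrps12ha/ha mouse 2. The heart of Mrps12+/+ mouse 3 held a summed 4787 normalized counts of 6 white adipocyte markers, and that of Mrps12ep/ep mouse 2 held 657, against 3.0 to 276.9 in the other hearts. Atrial markers, 4 in number, summed to 162731 and 117528 in Mrps12+/+ mice 2 and 3 and to 332834 and 92947 in Mrps12ep/ep mice 2 and 3, against 1681 to 10279 in the other hearts, all 3 Mrps12ha/ha hearts among them. The livers of Mrps12+/+ mice 1 and 2 held 20112 and 25436 of 8 skeletal muscle markers against 17.8 to 142.6 in the other livers. The same livers held Adipoq, an adipocyte hormone, at 34.3 and 118.1 against 0.0 to 3.9 in the others, and Lep, leptin, at 30.1 and 203.8 against 0.0 to 6.5. The sum of the 6 white adipocyte markers used for the hearts did not set both apart, with 600.3 and 825.7 against 181.7 to 672.3. Adrb3, the largest part of these sums, stood at 498.8 and 340.4 against 167.1 to 668.9 in the others. The liver of Mrps12+/+ mouse 3 held 1480124 normalized counts of 6 acute phase genes against 152092 to 210448 in the others. Every Mrps12+/+ liver thus differed from every mutant liver in 1 of these lists, and the part of this in the results was not tested. Hepatocyte markers led the livers as labelled, with Alb at 2890195 to 4510912. In the hearts 6 cardiomyocyte markers summed to 1836335 to 3157889. Alb was highest in the hearts of Mrps12+/+ mouse 1 (9895), Mrps12ha/ha mouse 2 (9879) and Mrps12ep/ep mouse 1 (7737), against 65.5 to 4115.5 in the others. The 6 hepatocyte markers summed to 115.9 and 838.3 in the hearts of Mrps12ep/ep mice 2 and 3, against 2190.5 to 14506.5 in the others.

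Scaled by exon length and library depth, Scd1 was the highest of the 10 genes in the liver by far. Its median level was 3342 reads per kilobase per 1000000 reads (range 2197 to 4606 over 9 mice), and its reads were 1.07% to 2.25% of all reads of a liver. Thrsp followed at 245 (77.6 to 307). Me1, Mlxipl, Fasn, Acly and Srebf1 came next with medians of 70.1, 67.3, 63.5, 55.4 and 39.5, and the ranges of these 5 genes over the mice overlapped. Elovl6 at 18.9 and Acaca at 7.33 were lower in median, each still overlapping its neighbour in the order, and Pnpla3 was the lowest at 0.667 (0.118 to 3.84), below every Acaca liver. Scd1 has close paralogs (Scd2, Scd3 and Scd4), between which shared reads are split by estimation.

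In the heart the order differed. Me1 led with a median level of 54.4 (31.4 to 57.9), followed by Thrsp at 16.0, Scd1 at 10.4, Mlxipl at 9.83, Acly at 8.07 and Srebf1 at 5.49. Fasn at 2.39, Acaca at 0.725, Pnpla3 at 0.649 and Elovl6 at 0.252 were the lowest. Each gene after Me1 overlapped the next in this order over the 9 mice. For 8 of the 10 genes the highest heart lay below the lowest liver. The liver median was 321 times the heart median for Scd1, 75.1 times for Elovl6 and 26.6 times for Fasn, but 6.85 times for Mlxipl and 7.20 times for Srebf1. Me1 (1.29 times) and Pnpla3 (1.03 times) overlapped between the tissues. These ratios rest on levels scaled to each library's reads, and the tissues' tables were scaled separately by the authors.

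**Figure D1:**
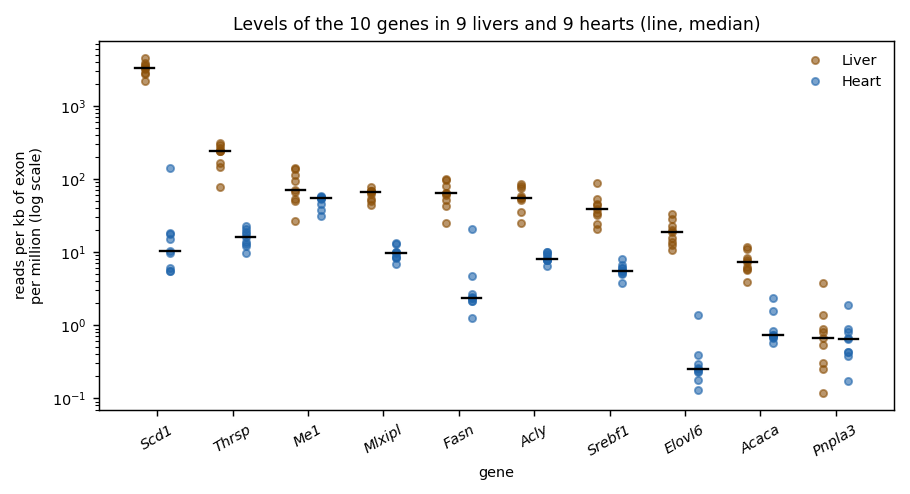
Levels of the 10 genes in reads per kilobase of exon per 1000000 reads on a log scale, with 1 point a mouse, 9 livers and 9 hearts, and a line at the median. The Scd1 livers (2197 to 4606) lie above all other points, and the hearts lie below the livers for all genes but Me1 and Pnpla3.

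Mlxipl, the gene of ChREBP (chr5:135089890-135138382, plus strand), showed the most even difference between liver genotypes. The 3 Mrps12+/+ livers held 14209.5, 14024 and 13179 normalized counts, the Mrps12ep/ep livers 17624, 20334 and 23107 and the Mrps12ha/ha livers 19067, 21338 and 19585. Both mutant groups lay above all Mrps12+/+ livers, and the mutants overlapped each other. Against a mean of 13804 ± 549 (SD, n = 3), Mrps12ha/ha livers averaged 19997 ± 1190.3, a log2 fold change of 0.53 (95% interval 0.28 to 0.79) with a limma adjusted p of 0.120. Mrps12ep/ep livers averaged 20355 ± 2742, a log2 fold change of 0.55 (0.30 to 0.81) with an adjusted p of 0.277. Each exact permutation p, two-sided, was 0.1, the smallest that 3 mice against 3 allow. Without any single mouse the log2 fold change stayed between 0.49 and 0.57 in Mrps12ha/ha and between 0.46 and 0.65 in Mrps12ep/ep livers. Both comparisons share the Mrps12+/+ livers and are not independent.

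Srebf1 (chr11:60199089-60222581, minus strand) was highest in the Mrps12ep/ep livers. The values were 10562, 6904 and 6227 in Mrps12+/+, 25508, 13389 and 15984 in Mrps12ep/ep and 9235, 14234 and 10180.0 in Mrps12ha/ha livers. All 3 Mrps12ep/ep livers lay above the Mrps12+/+ livers, with a log2 fold change of 1.20 (0.57 to 1.82), an unadjusted p of 0.00179 and an adjusted p of 0.334 from limma. The Mrps12ha/ha livers overlapped the Mrps12+/+ livers, with 0.52 (-0.10 to 1.14) and an adjusted p of 0.432. Set directly against each other, Mrps12ha/ha livers averaged 11216 ± 2656 and Mrps12ep/ep livers 18294 ± 6381, a log2 fold change of -0.68 (-1.30 to -0.05) with an adjusted p of 0.558. For Mlxipl the same difference between the mutants was -0.02, with an interval of -0.28 to 0.24.

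Of the chain-building enzymes, Fasn (chr11:120805846-120824547, minus strand) stood at 42089.7, 23195 and 14603 normalized counts in Mrps12+/+, 33134, 56304 and 37477 in Mrps12ep/ep and 35117, 31398 and 58037 in Mrps12ha/ha livers. The groups overlapped, since Mrps12+/+ mouse 1 lay above 4 of the 6 mutants. The log2 fold changes were 0.76 (-0.10 to 1.63) in Mrps12ep/ep and 0.72 (-0.14 to 1.58) in Mrps12ha/ha livers, with limma adjusted p of 0.543 and 0.430.

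Acly (chr11:100476353-100528000, minus strand) ranged from 7115 to 20067 in Mrps12+/+, 14831 to 20889 in Mrps12ep/ep and 13999 to 23952 in Mrps12ha/ha livers. Acaca (chr11:84129672-84401651, plus strand) ranged from 3562 to 6739, 5047 to 10139 and 5978 to 10475 for the 3 genotypes. Elovl6 (chr3:129532355-129638495, plus strand) ranged from 3660 to 6949, 4135 to 9619 and 4961 to 11223. For these 3 genes the groups overlapped in both comparisons with Mrps12+/+, with log2 fold changes between 0.36 and 0.67 and all intervals including 0.

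Scd1 (chr19:44394455-44407879, minus strand) was the enzyme whose groups came nearest to separating. The values were 746696, 689611 and 575049 in Mrps12+/+, 895780, 867527 and 1013814 in Mrps12ep/ep and 878555, 741349 and 1183774 in Mrps12ha/ha livers. All Mrps12ep/ep livers lay above the Mrps12+/+ livers, and Mrps12ha/ha mouse 2 lay just under the highest Mrps12+/+ mouse. The log2 fold changes were 0.47 (-0.28 to 1.22) in Mrps12ep/ep and 0.46 (-0.29 to 1.21) in Mrps12ha/ha livers, with limma adjusted p of 0.653 and 0.567.

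Me1 (chr9:86581371-86695953, minus strand) did not follow the other genes. Its values were 12002, 17862 and 11104 in Mrps12+/+, 5181, 28540 and 10254 in Mrps12ep/ep and 22070, 15005 and 27799 in Mrps12ha/ha livers. The Mrps12ep/ep livers covered both the lowest and the highest value of all 9 mice, and Me1 was the only 1 of the 10 genes with a negative log2 fold change there, -0.22 (-1.39 to 0.96, limma adjusted p of 0.916). On the linear scale the means ran the other way, 14658 in Mrps12ep/ep against 13656 in Mrps12+/+ livers. In Mrps12ha/ha livers it was 0.65 (-0.53 to 1.83, adjusted p of 0.608).

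Among the genes that accompany the pathway, Thrsp encodes Spot 14, a nuclear protein of lipogenic tissues (chr7:97412938-97417730, minus strand). Its liver values were 25439, 15914 and 9089 in Mrps12+/+, 18288, 34319 and 27741 in Mrps12ep/ep and 29315, 29868 and 35263 in Mrps12ha/ha mice. All Mrps12ha/ha livers lay above the Mrps12+/+ livers, with a log2 fold change of 1.02 (0.25 to 1.80), an unadjusted p of 0.0153 and an adjusted p of 0.253 from limma. Pnpla3, which encodes a lipid droplet protein (chr15:84167837-84187236, plus strand), had few reads and the widest range, with 49.0, 23.5 and 9.8 in Mrps12+/+, 19.6, 114.9 and 66.6 in Mrps12ep/ep and 69.0, 46.4 and 311.9 in Mrps12ha/ha livers. The groups overlapped, and its log2 fold change of 2.10 in Mrps12ha/ha livers had an interval of 0.15 to 4.05 and a limma adjusted p of 0.325.

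**Figure D2:**
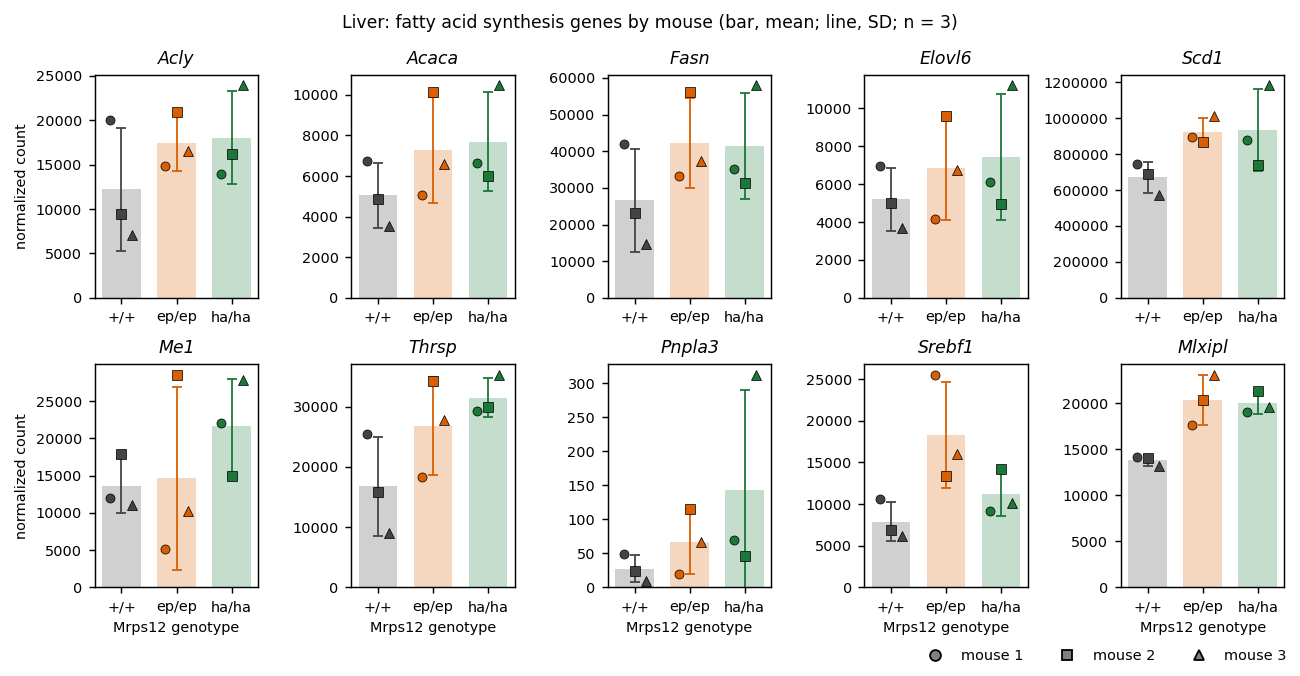
Normalized counts of the 10 genes in each liver by Mrps12 genotype, with bars at the mean, lines for the SD (n = 3 mice, cut at 0 for Pnpla3) and a marker shape for each mouse number. The Mlxipl points of both mutants (17624 to 23107) lie above those of Mrps12+/+ (13179 to 14209.5), whereas mouse 3 is the lowest Mrps12+/+ point in each panel.

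Read together in the liver, 0 of the 10 genes passed an adjusted p of 0.05 with limma in either comparison with Mrps12+/+, where 0.00653% of all tested genes did. At an unadjusted p under 0.05, 3 of the 10 were higher in Mrps12ha/ha livers (Mlxipl, Thrsp and Pnpla3) and 0 lower, beside 7.07% and 7.05% of all tested genes. In Mrps12ep/ep livers 2 were higher (Mlxipl and Srebf1) and 0 lower, beside 4.62% and 5.12%. Groups did not overlap, with the mutant higher, for 2 of the 10 in Mrps12ha/ha (10.0% of all tested genes) and for 3 in Mrps12ep/ep livers (6.49%). The log2 fold change was above 0 for 10 of 10 in Mrps12ha/ha and 9 of 10 in Mrps12ep/ep livers, beside 47.5% and 48.9% of all tested genes. The median over the 10 genes was 0.63 and 0.60, beside -0.02 and -0.01 over all tested genes. Between the mutants the median was 0.06, with 0 of 10 passing (0.00653% of all), 1 lower in Mrps12ha/ha at an unadjusted p under 0.05 (Srebf1, 4.45% of all) and 0 of 10 not overlapping (17.8%).

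These counts do not stand for 10 separate observations, because the genes share mice. The liver of Mrps12+/+ mouse 3 was the lowest of the 9 for 9 of the 10 genes, all but Me1, and for 19.1% of all tested genes. The liver of Mrps12ha/ha mouse 3, which also held cardiomyocyte markers summing to 6924, was the highest for 7 of the 10 and for 6.81% of all tested genes. Mouse 3 of Mrps12+/+ is the liver with high acute phase genes (Saa1, serum amyloid A, at 330947 against 2391 to 12127 in the others). With it left out, the median log2 fold change was 0.37 in Mrps12ha/ha and 0.36 in Mrps12ep/ep livers. With the livers of Mrps12+/+ mice 1 and 2 left out instead, mouse 3 was the sole Mrps12+/+ liver, assumed to vary like the other groups. Then the medians were 1.0 and 1.12, and 2 genes passed in Mrps12ha/ha (Acly and Thrsp) and 3 in Mrps12ep/ep livers (Acly, Srebf1 and Thrsp), beside 6.93% and 7.52% of all tested genes.

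In the heart 5 of the 10 genes were highest in a single mouse. Fasn stood at 876, 839 and 7229 normalized counts in Mrps12+/+, 780, 1534 and 449.5 in Mrps12ep/ep and 858, 999.7 and 774.5 in Mrps12ha/ha hearts. Mouse 3 of Mrps12+/+ lay 8.25 times above the higher of the other Mrps12+/+ hearts. The same heart was 7.48 times above them for Scd1 (22323 against 1633 and 2985), 4.51 times for Elovl6 (283.6), 2.90 times for Acaca (1308) and 2.78 times for Pnpla3 (95.6). This is the heart in which Adipoq stood at 1276 against 0.0 to 214.0 elsewhere, and Ucp1, the uncoupling protein of brown fat, at 8557 against 0.0 to 722.6. The second highest heart for Fasn, Acaca and Elovl6 was Mrps12ep/ep mouse 2, which was also second for Adipoq and Ucp1. In the other 7 hearts Fasn ranged from 449.5 to 999.7 and Acaca from 320.3 to 451.6. All 6 white adipocyte markers were above 0 in both of these hearts and in Mrps12+/+ mouse 2, and 1 to 4 of the 6 were at 0 in each of the other 6 hearts. Mrps12+/+ mouse 2, next in the sum of these markers at 276.9, held Fasn at 839 and Scd1 at 1633, both within the range of those 6 hearts. Apart from the hearts of Mrps12+/+ mouse 3 and Mrps12ep/ep mouse 2, Scd1 ranged from 858 to 2985. It was then highest in Mrps12+/+ mouse 1 (2985) and Mrps12ha/ha mouse 2 (2495), the hearts with the most Alb. The part of adipocyte transcripts in these 5 genes, and of hepatocyte transcripts in Scd1, was not tested.

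**Figure D3:**
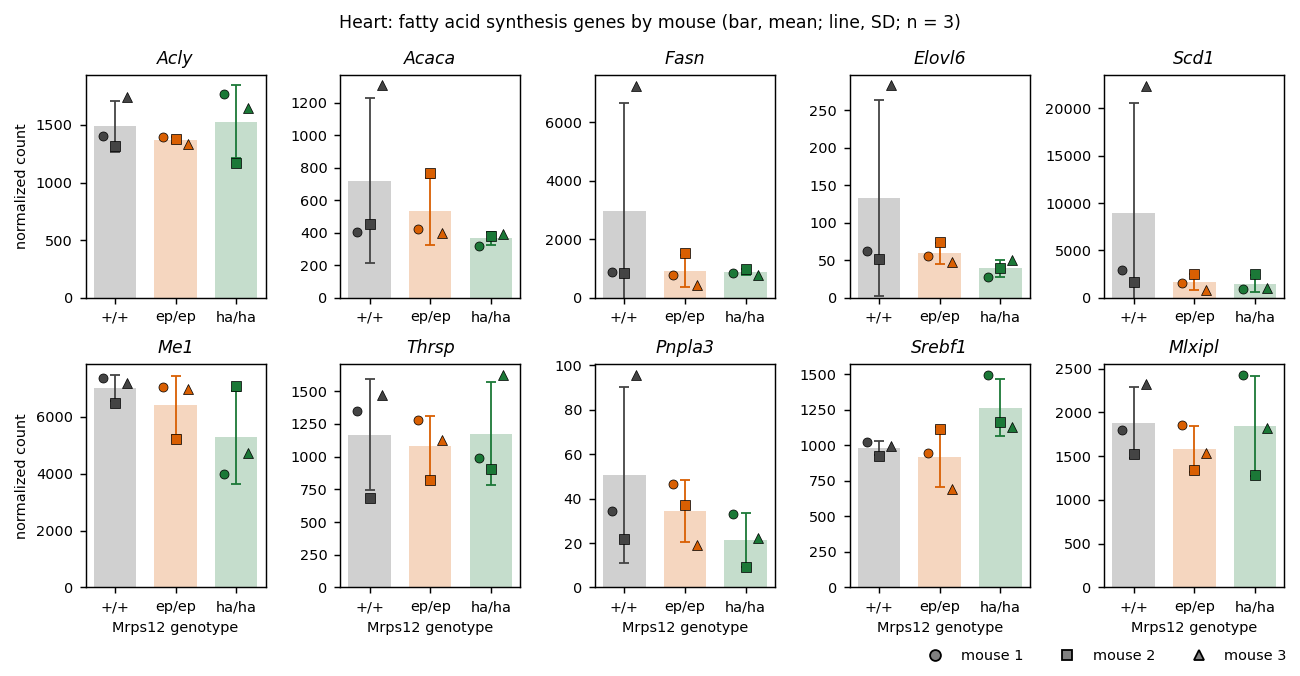
Normalized counts of the 10 genes in each heart by Mrps12 genotype, with bars at the mean, lines for the SD (n = 3 mice, cut at 0) and a marker shape for each mouse number. Mrps12+/+ mouse 3 stands apart for Fasn (7229), Scd1 (22323), Elovl6 (283.6), Acaca (1308) and Pnpla3 (95.6), and Me1, Srebf1, Mlxipl, Acly and Thrsp show no such point.

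The sizes of these differences between hearts moved with this mouse. In Mrps12ha/ha hearts the log2 fold changes were -1.87 for Scd1 (-3.81 to 0.06), -1.34 for Elovl6 (-2.63 to -0.04), -1.09 for Pnpla3 (-2.53 to 0.34), -1.0 for Fasn (-2.70 to 0.70) and -0.77 for Acaca (-1.71 to 0.18). The lowest limma adjusted p among the 10 was 0.244, for Elovl6, and 0 of 10 passed, where 0.0311% of all tested genes did. In Mrps12ep/ep hearts 10 of 10 log2 fold changes were below 0 (52.2% of all tested genes), from -1.65 to -0.06, with adjusted p of 1.0 each, and 0 of 10 passed with limma, as did 0.0% of all tested genes. At an unadjusted p under 0.05 there were 0 of 10 in Mrps12ep/ep (1.69% of all) and 1 lower in Mrps12ha/ha hearts (Elovl6, 10.1% of all), and the groups did not overlap for 0 of 10 in Mrps12ep/ep hearts (8.03% of all). With Mrps12+/+ mouse 3 and Mrps12ep/ep mouse 2 left out, the log2 fold changes in Mrps12ha/ha hearts were -0.76 for Scd1, -0.58 for Elovl6, -0.50 for Pnpla3, 0.03 for Fasn and -0.23 for Acaca. The median over the 10 genes moved from -0.61 to -0.10 there and from -0.26 to -0.02 in Mrps12ep/ep hearts.

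**Figure D4:**
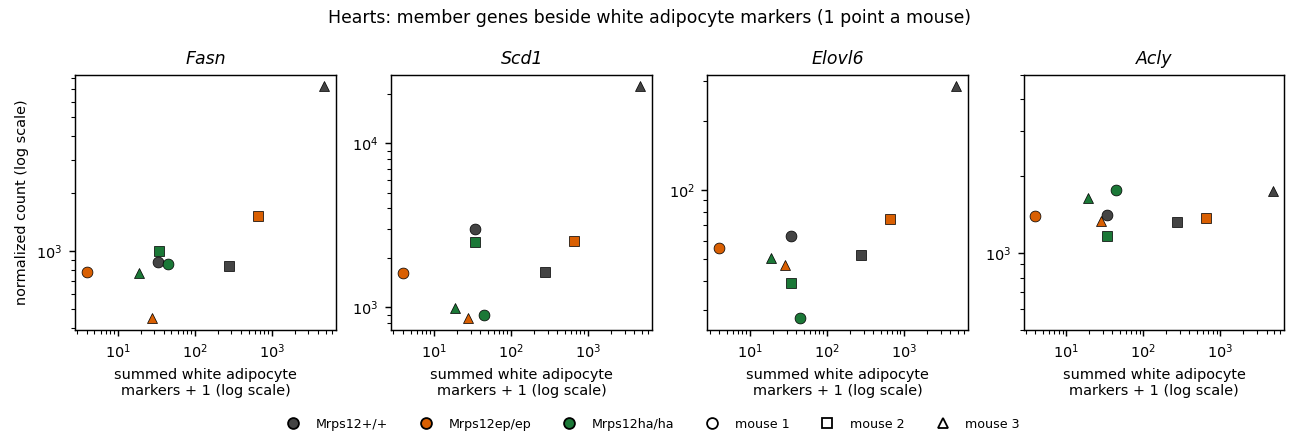
Normalized counts of Fasn, Scd1, Elovl6 and Acly in each heart (log scale) against the summed normalized counts of 6 white adipocyte markers plus 1 (log scale), with colour for genotype and shape for mouse. Mrps12+/+ mouse 3, at 4787 summed counts, is the highest point for Fasn, Scd1 and Elovl6, and lies among the others for Acly at 1742.

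The other members were not highest in the heart of Mrps12+/+ mouse 3. Acly, Thrsp and Mlxipl were still higher there than in the other Mrps12+/+ hearts, at 1.24, 1.09 and 1.29 times the higher of these. Their relation to the adipocyte markers was not tested. Srebf1 stood at 1020.4, 922 and 995 in Mrps12+/+, 945, 1116 and 695.6 in Mrps12ep/ep and 1495, 1166 and 1131 in Mrps12ha/ha hearts. All 3 Mrps12ha/ha hearts lay above all 6 others, with a log2 fold change of 0.36 (-0.05 to 0.76, limma adjusted p of 0.287) against Mrps12+/+ and 0.47 (0.07 to 0.88, adjusted p of 0.253) against Mrps12ep/ep hearts. Groups did not overlap for 1 of 10 genes higher and 2 lower (Elovl6 and Acaca) in Mrps12ha/ha than in Mrps12+/+ hearts, beside 11.1% and 10.0% of all tested genes. Against Mrps12ep/ep hearts there were 1 higher (8.77% of all) and 1 lower (Acaca, 7.82%), 1 was higher at an unadjusted p under 0.05 (Srebf1, 9.07% of all) and 0 of 10 passed the adjusted p (0.0249% of all).

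Me1, the highest of the 10 genes in the heart, stood at 7355, 6483 and 7175 in Mrps12+/+, 7027, 5203 and 6961 in Mrps12ep/ep and 3989, 7088 and 4721 in Mrps12ha/ha hearts. Mrps12ha/ha mice 1 and 3 were the lowest of the 9, and mouse 2, the shallowest library, lay with the Mrps12+/+ hearts. The log2 fold change against Mrps12+/+ was -0.45 (-0.92 to 0.02, limma adjusted p of 0.261), and without Mrps12ha/ha mouse 2 it was -0.69 with an adjusted p of 0.0136. Against Mrps12ep/ep it was -0.31, and -0.55 with an adjusted p of 0.0342 without that mouse. In the same fit without mouse 2, 4330 of all tested genes passed against Mrps12+/+, in place of 5. The hearts of mice 1 and 3 also held the most erythroid transcripts, 464387 and 1411965 against 91865 to 235641 in the others. All 3 Mrps12ha/ha hearts were also low in atrial markers, as given above, and the part of either in the values of Me1 and Srebf1 was not tested.

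Acly, Thrsp and Mlxipl differed little on average between heart genotypes. Acly ranged from 1319 to 1742 in Mrps12+/+, 1338 to 1392 in Mrps12ep/ep and 1169 to 1769 in Mrps12ha/ha hearts, with log2 fold changes of 0.03 (-0.35 to 0.40) in Mrps12ha/ha and -0.11 (-0.49 to 0.27) in Mrps12ep/ep. Mlxipl ranged from 1525 to 2326, 1344 to 1862 and 1287 to 2430, with -0.05 (-0.60 to 0.49) and -0.24 (-0.78 to 0.30). Thrsp ranged from 681 to 1472, 823 to 1282 and 909 to 1625, with 0.04 (-0.69 to 0.76) and -0.06 (-0.79 to 0.67).

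**Figure D5:**
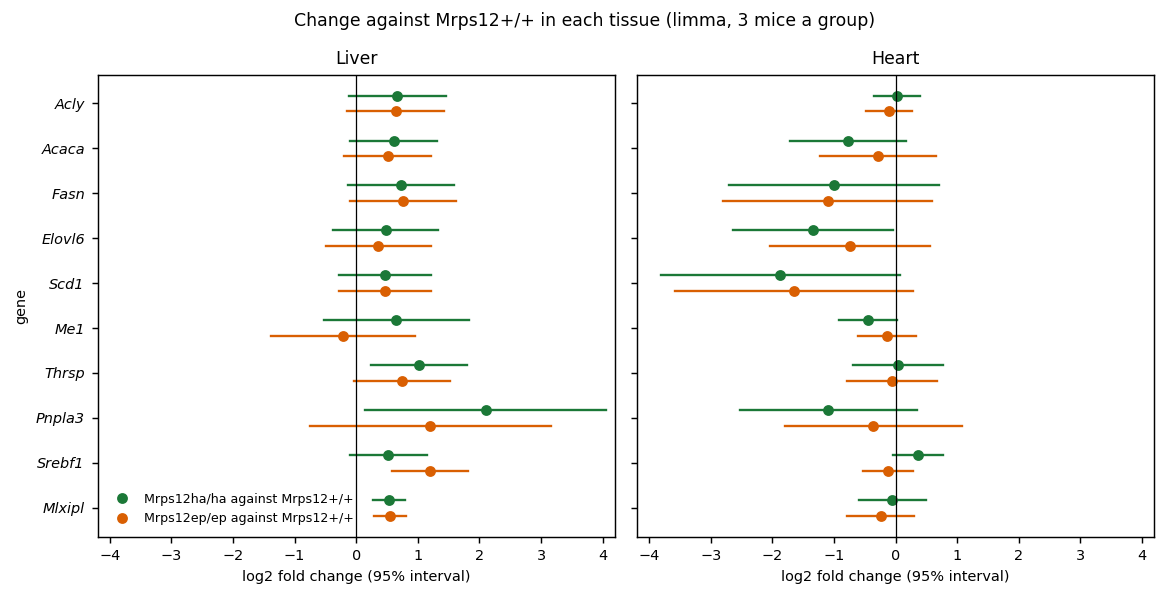
Log2 fold changes of the 10 genes against Mrps12+/+ in liver and heart, with 95% intervals from limma (3 mice a group). In the liver the points lie right of 0 for all genes but Me1 in Mrps12ep/ep, and the intervals of Mlxipl (0.28 to 0.79 and 0.30 to 0.81) are the shortest. In the heart the wide intervals of Scd1 and Fasn go with the spread of the Mrps12+/+ mice.

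The tissues were then compared with each other. The difference of the log2 fold change, liver minus heart, was above 0 for 10 of 10 genes in Mrps12ha/ha and for 9 of 10 in Mrps12ep/ep mice. The share of all genes above 0 was not counted here, so these signs are no result about the 10 genes. The Mrps12+/+ liver 3, lowest for 9 of the 10, and heart 3, highest for 5, enter both comparisons. With limma 0 of 10 passed the adjusted p in either (0.0711% and 0.00711% of the 14070 genes tested in both tissues did). At an unadjusted p under 0.05 there were 4 of 10 in Mrps12ha/ha (13.7% of all) and 3 of 10 in Mrps12ep/ep mice (5.57%). For Mlxipl it was 0.79 (0.19 to 1.40) in Mrps12ep/ep and 0.59 (-0.02 to 1.19) in Mrps12ha/ha mice, with limma adjusted p of 0.876 and 0.378. For Srebf1 it was 1.31 (0.55 to 2.07) in Mrps12ep/ep with an adjusted p of 0.651, and 0.16 (-0.60 to 0.92) in Mrps12ha/ha mice. The 4 in Mrps12ha/ha mice were Pnpla3, Elovl6, Acaca and Scd1, and for these and Fasn the heart of Mrps12+/+ mouse 3 was the highest of all hearts. The part of this heart, or of its adipocyte transcripts, in the difference was not tested.

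Whether the levels of the factors went with those of the other genes was asked over the 9 mice of a tissue, in 34 relations of log2 values adjusted together. In the liver Mlxipl had its highest correlations with Thrsp (Pearson r = 0.77, exact permutation p = 0.0118, adjusted p = 0.201; Spearman rho = 0.75, p = 0.0255, adjusted p = 0.433) and Scd1 (r = 0.72, exact permutation p = 0.0277, adjusted p = 0.287; rho = 0.58, p = 0.108). Without the 2 mice farthest from the median of Mlxipl these were 0.42 and 0.40, and within genotypes 0.51 and 0.11. For Fasn r was 0.62, and -0.04 without those 2 mice. Srebf1 ran from -0.48 with Me1 to 0.61 with Mlxipl in the liver, and 0 of its 9 relations passed there. In the heart the relation of Mlxipl with Acly had r = 0.90 (exact permutation p = 0.000722, adjusted p = 0.0246) and rho = 0.90 (p = 0.00203, adjusted p = 0.0690), with r = 0.79 without the 2 farthest mice and 0.90 within genotypes. None of the other 33 passed for Pearson's r. Mlxipl with Pnpla3 had r = 0.68 in the heart (exact permutation p = 0.0423, adjusted p = 0.288), and Srebf1 with Me1 had r = -0.69 (p = 0.0337, adjusted p = 0.286).

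The 10 genes' standardized values were averaged to a profile over the mice, and genes with a mean of at least 100 were ranked by their correlation with it. In the liver Fasn (r = 0.97), Acaca (0.97), Thrsp (0.96), Pnpla3 (0.95) and Acly (0.93) lay nearest to the profile of which they are part, with Me1 at 0.51 and Srebf1 at 0.43. The genes outside the 10 with the highest r among 11294 were Klc4 (0.95), Zfp319 (0.94), Brd3 (0.94), Gm15675 (0.94), Nfe2l2 (0.94) and Nags (0.94). In the heart they were Trarg1 (0.95), Xrcc6 (0.92), Letmd1 (0.91), Pfkfb3 (0.89), Cidea (0.88) and Ahcyl1 (0.88) among 11898. Cidea is a brown adipocyte marker and was highest in the heart of Mrps12+/+ mouse 3, at 3547 against 1014 to 1435 elsewhere.

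Genes around the pathway were counted in the same fit, and in the liver 0 of them passed an adjusted p of 0.05 with limma against Mrps12+/+ in any of the lists named here. Of 12 partners of ChREBP and genes known to answer to glucose, 9 had a log2 fold change above 0 in Mrps12ha/ha and 10 in Mrps12ep/ep livers, with medians of 0.55 and 0.44, and at an unadjusted p under 0.05 there were 5 and 2 higher and none lower. Of all tested genes 47.5% and 48.9% were above 0, and 7.07% and 4.62% were higher at that p. Pklr, liver pyruvate kinase and a classical ChREBP target, stood at 11669 to 17185 in Mrps12+/+ and 24445 to 33759 in Mrps12ha/ha livers, a log2 fold change of 1.07 (0.26 to 1.87, adjusted p of 0.249). Gckr stood at 6898 to 11692, 13421 to 14749.6 in Mrps12ha/ha and 13617 to 17620.1 in Mrps12ep/ep livers, with 0.57 (adjusted p of 0.255) and 0.63 (adjusted p of 0.429). Mid1ip1, a relative of Thrsp, had 0.78 in Mrps12ep/ep livers (adjusted p of 0.420).

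Of 10 glycerolipid synthesis genes, 7 had a log2 fold change above 0 in Mrps12ha/ha and 4 in Mrps12ep/ep livers, with medians of 0.17 and -0.03. Dgat2, which makes triglyceride, stood at 17523 to 18949 in Mrps12+/+, 20665 to 25268 in Mrps12ep/ep and 25257 to 27022 in Mrps12ha/ha livers, with log2 fold changes of 0.36 (adjusted p of 0.410) and 0.52 (0.29 to 0.76, adjusted p of 0.113). Gpam, the first acyltransferase of the route, had 0.46 in Mrps12ha/ha livers (adjusted p of 0.260) and Agpat2, the next, had 0.27 in Mrps12ep/ep livers (adjusted p of 0.519).

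Of 15 tested genes for other chain synthesis, elongation and desaturation steps, 10 were above 0 in Mrps12ha/ha and 2 in Mrps12ep/ep livers (medians 0.07 and -0.25). At an unadjusted limma p under 0.05, 4 were lower and 0 higher in Mrps12ep/ep livers, beside 5.12% and 4.62% of all tested genes. In Mrps12ha/ha livers there were 0 in either direction, beside 7.05% lower and 7.07% higher. Elovl1 had -0.28 (adjusted p of 0.430) and -0.41 (adjusted p of 0.458), Hacd3 had -0.53 in Mrps12ha/ha livers (adjusted p of 0.474) and Elovl7 had -1.77 in Mrps12ep/ep livers (adjusted p of 0.461). All 5 genes of cytosolic NADPH supply were above 0 in both (medians 0.08 and 0.03), with 0.33 for Pgd and 0.33 for Tkt in Mrps12ha/ha livers (adjusted p of 0.575 and 0.630) and 0.06 for G6pdx and 0.02 for Idh1 in Mrps12ep/ep livers. Of 11 genes of SREBP processing and its partners, 8 were above 0 in each (medians 0.02 and 0.13). Srebf2, the cholesterol counterpart of Srebf1, had -0.69 in Mrps12ep/ep livers (-1.29 to -0.10, adjusted p of 0.470), where Srebf1 had 1.20. Nr1h3, which encodes LXR alpha, had 0.17 and 0.15 (adjusted p of 0.359 and 0.547), and Usf1 had 0.33 in Mrps12ha/ha livers (adjusted p of 0.261).

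Feeding state and time of day are known to move this pathway in the liver, so their genes are given beside it. Of 11 fasting and feeding genes, 4 were above 0 in each mutant (medians -0.48 and -0.23). Igfbp1, which is high in fasting, stood at 2132 to 3731 in Mrps12ha/ha livers against 4850.1 to 22518 in Mrps12+/+, a log2 fold change of -2.02 (adjusted p of 0.150). Pck1, a gluconeogenic enzyme that is also high in fasting, stood at 153521 to 205980 in Mrps12+/+, 215845 to 231281 in Mrps12ep/ep and 103773 to 148650 in Mrps12ha/ha livers, so that the mutants lay on opposite sides of the Mrps12+/+ livers. Pdk4, also high in fasting, had -1.44 in Mrps12ha/ha (adjusted p of 0.170) and -1.63 in Mrps12ep/ep livers (adjusted p of 0.342). Of 12 clock genes, 4 were higher at an unadjusted p under 0.05 in Mrps12ha/ha livers and 1 in Mrps12ep/ep livers, beside 7.07% and 4.62% of all tested genes. Per3 stood at 1327 to 1480 in Mrps12ha/ha livers against 460 to 775 in Mrps12+/+ (1.31, adjusted p of 0.119), Tef had 0.51 there (adjusted p of 0.138), and Cry1 and Nr1d1 had 0.83 and 0.74 in Mrps12ep/ep livers (adjusted p of 0.420 and 0.530). The hour of collection and the feeding state were not given in the sources used here, and their part in the values of the 10 genes was not tested.

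In the heart the same lists gave 1 call with limma, that of Irs2, insulin receptor substrate 2, in Mrps12ha/ha hearts, among 9 tested fasting and feeding genes of which 2 were above 0 there and 1 in Mrps12ep/ep hearts. Of all tested genes 0.0311% passed in Mrps12ha/ha hearts, and 47.7% were above 0 in either mutant. Irs2 stood at 260 to 347 against 934 to 1260 in Mrps12+/+, a log2 fold change of -1.76 (-2.22 to -1.30, adjusted p of 0.0291). Angptl4, an inhibitor of lipoprotein lipase, had 1.63 there (adjusted p of 0.144), and Irs2 and Pdk4 had -0.51 and -0.68 in Mrps12ep/ep hearts (adjusted p of 1.0 each). Of 12 clock genes, 6 were higher and 4 lower in Mrps12ha/ha than in Mrps12+/+ hearts at an unadjusted p under 0.05, beside 9.64% and 10.1% of all tested genes, with 0.89 for Nr1d1 (adjusted p of 0.0935) and 1.09 for Dbp (adjusted p of 0.159). In Mrps12ep/ep hearts 1 was higher (1.05% of all), Nr1d1 with 0.40, and Per1 had -0.27.

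Of 12 genes around ChREBP, 4 were above 0 in Mrps12ha/ha and 1 in Mrps12ep/ep hearts, with 0.89 for Txnip, a glucose sensor target, and -0.42 for Tkfc in the former (adjusted p of 0.191 and 0.273) and -2.43 for Pklr in the latter. Of 16 tested chain synthesis genes 5 and 4 were above 0, with -0.40 for Acss2 and -0.63 for Fads2 in Mrps12ha/ha (adjusted p of 0.208 and 0.255) and 0.28 for Elovl5 and -2.56 for Elovl3 in Mrps12ep/ep hearts. Of 10 glycerolipid genes 2 were above 0 in each, with 0.74 for Acsl5 and -0.76 for Acsl1 in Mrps12ha/ha (adjusted p of 0.199 and 0.238) and -0.56 for Agpat2 and -0.88 for Gpd1 in Mrps12ep/ep hearts. Of 11 SREBP genes 5 and 3 were above 0, with -0.44 for Insig1 and -0.47 for Insig2 in Mrps12ha/ha (adjusted p of 0.240 and 0.282) and -0.40 for Insig1 and -0.24 for Scap in Mrps12ep/ep hearts. Of 5 NADPH genes 2 were above 0 in each, with -0.51 for Idh1 and 0.14 for Taldo1 in Mrps12ha/ha (adjusted p of 0.194 and 0.500) and -0.29 and -0.12 in Mrps12ep/ep hearts. The adjusted p was 1.0 for each gene named in Mrps12ep/ep hearts. Hepatocyte markers, 6 in number, had a median log2 fold change of -2.65 in these hearts, near those of Pklr and Elovl3. Elovl3 stood at 48.2, 4.3 and 67.3 in Mrps12+/+ and 27.7, 0.6 and 0.9 in Mrps12ep/ep hearts. The part of hepatocyte transcripts in these values was not tested.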

How the data were processed

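The authors trimmed stranded reads with Trim Galore 0.4.1 and cutadapt 1.18, quantified genes with Salmon 1.1.0 on GENCODE vM21 (GRCm38.p6), and normalized each tissue with DESeq2 without mitochondrial transcripts. The deposited values are these normalized counts, a score per gene, rounded, for the pooled technical libraries of each mouse. Divided by the smallest step of its column, 100.0% of low values came out whole within 0.1 reads, which gave reads and depth. The authors' fold changes and p-values for their comparisons were not used.

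Log2(normalized count + 1) was fitted with limma 3.58.1 (R 4.3.3, lmFit and eBayes with a trend), with the 9 mice of each tissue together, for genes with a mean of at least 10, adjusted by Benjamini-Hochberg over all tested genes with a threshold of 0.05. The liver-minus-heart difference was a contrast in a limma fit over all 18 columns, of differences taken within each separately scaled tissue. Exact permutation tests used all 20 splits of 6 mice. Levels used merged exon length. The scripts were tested on simulated data for Mrps12ha/ha against Mrps12+/+, with 100 genes changed at each size. Among those changed by a log2 fold of 1, 82 heart and 91 liver genes were called with little spread between replicates (dispersion 0.02). With more spread (0.1) only 6 and 10 were called, against 83 and 87 for a log2 fold of 2. A gene that did not pass can therefore still differ by a log2 fold of 1 where replicates spread widely. In each simulation all genes had the same spread and no mouse stood apart, unlike Fasn in Mrps12+/+ hearts (SD 123.4% of its mean). For such genes it does not say how often a log2 fold of 2 would pass. Igfbp1, at -2.02 in Mrps12ha/ha livers, did not pass (limma adjusted p of 0.150). Python 3.11.15 was used for the rest. The named genes are the members, up to 2 genes a list with the smallest p against Mrps12+/+ and the 6 genes per tissue most like the members' profile, while other genes and the marker values were named after their values were seen. Some genes that this rule names are not reported here. The members and lists were chosen with earlier results of these data known. Replicates of a group differed by more than sampling noise. Hearts and livers with the same number were not paired, because the labels do not say that they came from the same mouse. Alternatives are given in the closing section.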

Additional observations from a re-analysis of the deposited data

How the results depend on the processing

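Of 780 alternative values of the members' 60 log2 fold changes, 721 kept their direction and side of the threshold, 52 changed sign and 7 passed the threshold. Those that changed sign belonged to 23 of the 60, of which 1 is a liver comparison with Mrps12+/+. No member passed with a pseudocount of 8, no filter, quantile normalization, 2 genotypes in the fit, the replicate block or limma-voom on recovered reads, and voom and the omissions of 2 mice were chosen after seeing the data. The edgeR and DESeq2 fits on recovered reads were not run, because the deposited values could not be declared as counts.

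Same-numbered mice of different genotypes deviated together above 0.1 in 2 of 9 pairs in each tissue, so the numbers were not taken as pairs, and 3 of 9 correlated best with their own number. These 2 pairs were Mrps12+/+ with Mrps12ep/ep mice 1 and 2, at 0.578 and 0.409 in the heart and 0.164 and 0.128 in the liver. Whether these hearts were collected together was not tested. With the replicate block 0 members passed in every comparison, and all genes called went from 5 to 3 (heart, Mrps12ha/ha against Mrps12+/+) and from 1 to 7, 9 and 6 in the liver.

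Leaving out 1 mouse gave 0 to 1 members called in the heart for Mrps12ha/ha against Mrps12+/+ and against Mrps12ep/ep (1 without Mrps12ha/ha mouse 2), and 0 to 0 elsewhere. The members' median then ran from 0.37 to 0.79 (Mrps12ha/ha) and 0.36 to 0.91 (Mrps12ep/ep) in the liver, from -0.17 to 0.28 between mutant livers, and from -0.75 to -0.10 and -0.46 to -0.03 in the heart. All genes called ran up to 90 and 68 in the liver and 4330 and 3730 in the heart. Without the Mrps12+/+ livers of mice 1 and 2, 2 members passed in Mrps12ha/ha and 3 in Mrps12ep/ep livers, the latter with a median of 1.12, and 1062 and 1151 of all genes passed. With voom, 1 member in place of 2 reached the smallest exact p between mutant hearts.

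Sign changes in Mrps12ep/ep against Mrps12+/+ hearts without both adipocyte-marked hearts were Acly (0.0029), Me1 (0.018), Mlxipl (0.033), Pnpla3 (0.13) and Thrsp (0.33). In Mrps12ha/ha hearts they were Fasn (0.025) and Mlxipl (0.11) against Mrps12+/+, and Scd1 (0.15) and Thrsp (-0.085) against Mrps12ep/ep, where Fasn was -0.036 with voom. In the liver Acly was -0.0089 between mutants after quantile normalization and Me1 was 0.049 in Mrps12ep/ep without Mrps12+/+ mice 1 and 2. Leaving out 1 mouse gave ranges across 0 in Mrps12ep/ep hearts for Acaca (-0.60 to 0.25), Acly (-0.19 to 0.0066), Elovl6 (-1.19 to 0.024), Me1 (-0.22 to 0.0), Pnpla3 (-0.82 to 0.23), Srebf1 (-0.27 to 0.070) and Thrsp (-0.41 to 0.15). In Mrps12ha/ha hearts they were Acly (-0.091 to 0.21), Fasn (-1.53 to 0.025), Mlxipl (-0.27 to 0.18) and Thrsp (-0.31 to 0.24), and against Mrps12ep/ep Fasn (-0.33 to 0.56), Mlxipl (-0.033 to 0.43), Scd1 (-0.69 to 0.15) and Thrsp (-0.16 to 0.26). Between mutant livers they were Acaca (-0.15 to 0.37), Acly (-0.20 to 0.19), Elovl6 (-0.23 to 0.40), Fasn (-0.31 to 0.18), Mlxipl (-0.12 to 0.077) and Scd1 (-0.19 to 0.14), and Me1 in Mrps12ep/ep livers (-0.87 to 0.36). The cause was not tested. With 3 mice a group, no exact test could reach a p below 0.1.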
